A study of Homo sapiens with 12 samples.

Results

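The 49 genes described here are DNA damage repair and checkpoint genes, from the checkpoint kinases to the homologous recombination, Fanconi, end joining, excision and mismatch repair genes. They were taken by symbol from a hand-written list and were all found among the 60666 genes of the deposited Huh7 table, each 1 time. All 49 reached at least 1 TPM (relative transcript abundance, corrected for length) in at least 3 libraries, as did 14394 genes in all. Huh7 is an established human hepatocellular carcinoma line, grown here in high-glucose DMEM with foetal bovine serum. The control group carried a lentiviral control sequence and the shFAM111B group a lentiviral short hairpin RNA against FAM111B, a serine protease gene, and the study selected infected cells in puromycin. Each group had 3 libraries of poly(A) RNA. Hep3B libraries with the same groups belong to the series and were not analysed here. Nothing in the sources used here says whether the 3 libraries of a group came from separate cultures or how many clones each line held, so the p-values measure only the spread between these libraries.

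FAM111B itself was at 7.84, 8.29 and 7.99 TPM in control and 0.96, 1.13 and 0.84 TPM in shFAM111B libraries, a fall of 2.20 on the log2 scale (SE 0.113, limma adjusted p 6.09e-06). The groups did not overlap, so the libraries followed their labels for the targeted gene. The hairpin's target sequence is shown because every comparison below rests on it.
shFAM111B target: ctgcctagtgattctcatt
These 19 bases matched FAM111B in full and no other gene of GENCODE release 29. None of the 49 repair genes held a full match. The nearest stretch in any of their transcripts had 4 mismatches, in BRCA1 and in MSH6.

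Cells repair different lesions by different routes. Breaks through both strands are rejoined directly by non-homologous end joining, or copied from the sister chromatid by homologous recombination after the ends have been resected, and the ATM and ATR kinases with CHEK2 and CHEK1 hold the cell cycle meanwhile. Crosslinks go through the Fanconi pathway into recombination, damaged bases through base excision, bulky adducts through nucleotide excision, and replication errors through mismatch repair. Many of the recombination and Fanconi genes are transcribed most in dividing cells, around S phase.

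A promoter of BRCA1 is printed because a neighbouring gene starts inside it and was measured in the same libraries. It is a RefSeq sequence of GRCh38.p14, from 250 bases before to 50 bases after the gene start, and a promoter was found for 44 of the 49 genes (65 entries, since some genes have several starts). Capitals mark matches on either strand to the CCAAT box, to the GC box with the letters GGGCGG, or to an E2F word (TTTCCCGC, TTTCGCGC, TTTGCCGC or TTTGGCGC).
BRCA1, chr17:43125315-43125614, minus strand: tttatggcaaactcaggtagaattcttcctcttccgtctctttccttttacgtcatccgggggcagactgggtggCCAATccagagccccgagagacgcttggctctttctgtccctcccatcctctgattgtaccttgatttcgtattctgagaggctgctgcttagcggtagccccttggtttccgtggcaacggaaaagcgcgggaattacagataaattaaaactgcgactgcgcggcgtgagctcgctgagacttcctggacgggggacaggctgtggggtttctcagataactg
The printed BRCA1 window held 1 CCAAT and neither of the other motifs, and the annotated start of NBR2, a non-coding RNA read the other way, lay at its base 5. Another BRCA1 entry (chr17:43170278-43170577), not printed, held 2 GC boxes and neither a CCAAT box nor an E2F word. E2F words were present in 15.4% of the 65 repair gene entries and in 3.30% of all 34796 promoters of the same length. A CCAAT box stood in 50.8% of the repair gene entries against 34.6% of all, and a GC box in 70.8% against 44.9%. These shares describe letters and do not mark sites in use.

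TPM are relative within a library, hold no read depth, and add up to a fixed total, so the scale between libraries is part of every fold change. A fold change here is the difference of the group means of log2(TPM + 1), shFAM111B minus control, which understates the change of low genes. A gene is said to have risen or fallen where its limma p-value, adjusted by Benjamini-Hochberg over all 14394 genes, was under 0.05, and to have been called where it also changed at least 2-fold with P under 0.05. Over all tested genes the median change was -0.36, and 6 other scalings placed that median between -0.56 and 0.17. Values were therefore also read against the median gene and under each scaling. Libraries correlated at 0.969 to 0.984 within a group and at 0.865 to 0.883 between groups (Pearson, across the tested genes). The 9 hepatocyte markers were present throughout, with a summed level of 27848 to 28423 TPM in control and of 41531 to 46497 TPM in shFAM111B libraries. Of these 4 rose and 5 fell, AFP going from 7045 to 7411 TPM in control to 21853 to 25038 TPM, and ALB from 6419 to 6492 TPM to 3988 to 4356 TPM. Of 5 fibroblast markers 3 stayed under 1 TPM (sum 8.91 to 10.7 TPM in control and 12.3 to 17.7 TPM in shFAM111B libraries), as did 3 of 4 endothelial markers (1.26 to 2.29 and 2.15 to 3.49 TPM), with KDR at 0. The leukocyte list summed to 280.2 to 287.7 and 311.8 to 342.8 TPM, nearly all of it LYZ, with CD3E at 0.13 TPM or less. What part these levels had in the results was not tested.

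Most repair transcripts were lower in shFAM111B cells, but as a list they were called about as often as other genes. Their summed level was 1893 ± 24.5 TPM in control and 1361 ± 17.5 TPM in shFAM111B libraries (SD, n = 3). In a bulk sample, fewer cells of a type and less RNA per cell cannot be told apart. Of the 49 genes, 13 were called lower (26.5%) against 23.7% of all tested genes, and 0 were called higher by limma against 6.82%. At an unadjusted P under 0.05 with no limit on the fold, 33 were lower (background 52.0%) and 3 higher (BLM, OGG1 and ERCC5, background 22.1%). With the adjusted p in place of P the same counts were set against 23.7% and 6.77%. By adjusted p alone 32 fell (background 50.9%), 2 rose (background 21.1%) and 15 did not pass. The groups did not overlap for 32 genes in the lower direction (background 52.8%) and for 3 in the higher direction (background 22.5%), and overlapped for 14, where 75.2% of all tested genes had groups that did not overlap. The median repair gene changed by -0.74, which is 0.38 further down than the median tested gene (-0.36). This distance was -0.36, -0.29 and -0.33 in the 3 shFAM111B libraries taken alone (SD 0.0396).

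**Figure D1:**
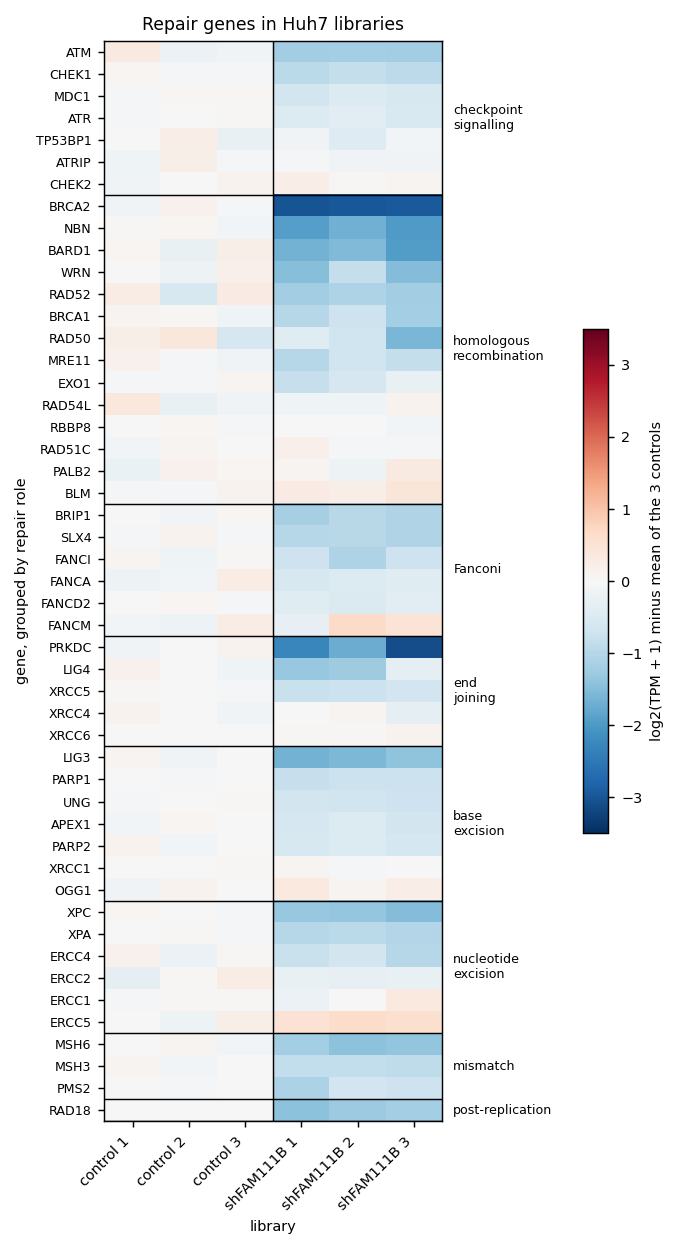
Heat map of log2(TPM + 1) minus the mean of the 3 control libraries (colour scale) for the 49 repair genes (rows, grouped by role and sorted by log2 fold change) in the 6 libraries (columns). BRCA2, PRKDC and NBN are the darkest rows in the shFAM111B columns, and ERCC5, BLM and FANCM are among the few with warm colours there.

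Checkpoint signalling split between the kinases. Of the 7 genes, 4 fell in the deposited TPM (background 50.9%), 0 rose (background 21.1%) and 3 did not pass. Those that fell were ATM, ATR, CHEK1 and MDC1, of which ATR and MDC1 took the other sign under some scalings. The group's median change was -0.47, or -0.11 against the median gene. That last value moved between -0.11 and 0.45 over the 7 scalings. ATM, the kinase that answers broken ends, was at 12.3, 8.29 and 8.83 TPM in control and 3.57, 3.67 and 3.55 TPM in shFAM111B libraries. Every shFAM111B library lay below every control, control 1 stood above the other controls, and the fall was called (log2 fold change -1.21, SE 0.15, limma adjusted p 0.000275), but under 2 of the 7 scalings only, and it was -0.22 with the length and expression trend removed. ATR, the kinase that answers stalled forks, was at 7.74, 8.03 and 8.2 TPM in control and 5.45, 5.86 and 5.16 TPM in shFAM111B libraries, a smaller fall (log2 fold change -0.47, SE 0.0919, limma adjusted p 0.00281) that turned to 0.051 by quantile normalization, 0.062 by subtracting each library's median and 0.53 with the length and expression trend removed. ATRIP, which brings ATR to single-stranded DNA, was at 8.81, 11.7 and 9.69 TPM in control and 9.65, 9.15 and 9 TPM in shFAM111B libraries, with groups that overlapped (limma adjusted p 0.457). CHEK1, the kinase downstream of ATR, was at 28, 25.6 and 25.7 TPM in control and 13.3, 14.3 and 13.6 TPM in shFAM111B libraries, a fall just under 2-fold (log2 fold change -0.90, SE 0.0701, limma adjusted p 3.02e-05), and it was lower under all 7 scalings. CHEK2, the kinase downstream of ATM and the highest of the group by mean TPM, was at 28.8, 31.5 and 34.3 TPM in control and 36.9, 32.1 and 33.4 TPM in shFAM111B libraries. Its libraries overlapped (log2 fold change 0.11, SE 0.0855, limma adjusted p 0.277). MDC1, the scaffold that reads phosphorylated histone H2AX, fell by 0.56 (limma adjusted p 0.000349), though with the trend removed its value was 0.37, and TP53BP1 did not pass (limma adjusted p 0.261). ATM shares its start region with NPAT, a histone gene activator read the other way from 158 nt off, and NPAT was at 4.62, 3.6 and 4.93 TPM in control and 1.37, 1.05 and 0.78 TPM in shFAM111B libraries (log2 fold change -1.38, SE 0.166, limma adjusted p 0.000239).

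Homologous recombination held the strongest change of all 49 genes. Called lower were 5 of its 14 genes (BRCA2, NBN, BARD1, WRN and RAD52), or 35.7% against a background of 23.7%. The median longest transcript of the 14 was 5061 nt, and of all tested genes of 4000 to 6000 nt 34.7% were called lower. BRCA1, MRE11 and EXO1 fell as well but turned positive with the length and expression trend removed. In the deposited TPM 8 of the 14 fell (background 50.9%), 1 rose (BLM, background 21.1%) and 5 did not pass, with a median of -0.87. Against the median gene that was -0.51, and it ran from -0.53 to 0.05 over the scalings. BRCA2, a core factor of strand exchange, was at 13.4, 16.4 and 14 TPM in control and 0.92, 0.98 and 1.02 TPM in shFAM111B libraries. The shFAM111B libraries lay close together, near the 1 TPM of the filter, and far below every control. BRCA2 passed that filter only with the controls counted. The means were 14.6 ± 1.60 and 0.973 ± 0.0503 TPM (SD, n = 3), for a log2 fold change of -2.98, SE 0.114, limma adjusted p 2.95e-06. Its percentile among the tested genes of a library, averaged over the 3 libraries of a group, went from 54.2 to 7.68. PALB2, which links BRCA2 to BRCA1, was at 6.91, 9.24 and 8.77 TPM in control and 8.86, 7.21 and 10.4 TPM in shFAM111B libraries, and its groups overlapped (limma adjusted p 0.688). BRCA1 was at 17.7, 16.9 and 14.9 TPM in control and 7.69, 9.6 and 6.6 TPM in shFAM111B libraries. Its groups were apart (log2 fold change -0.98, SE 0.138, limma adjusted p 0.000557) and the fall was just under 2-fold, being called without control 3 (-1.05) or without shFAM111B 2 (-1.11), but it was 0.026 with the trend removed. BARD1, the partner with which BRCA1 forms a ubiquitin ligase, was at 7.67, 5.84 and 8.52 TPM in control and 1.62, 1.83 and 1.15 TPM in shFAM111B libraries, a called fall of 1.72 (SE 0.173, limma adjusted p 9.86e-05). NBR2, which starts inside the BRCA1 promoter printed above, went the other way and was at 7.74, 6.08 and 3.92 TPM in control and 9.17, 9.53 and 11.2 TPM in shFAM111B libraries (log2 fold change 0.70, SE 0.211, limma adjusted p 0.0198).

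The MRE11-RAD50-NBN complex, which senses and begins to resect broken ends, was lower in NBN most of all. NBN was at 20.2, 20.6 and 18.6 TPM in control and 4.49, 5.42 and 4.29 TPM in shFAM111B libraries, with means of 19.8 ± 1.05 and 4.73 ± 0.603 TPM (SD, n = 3) and a log2 fold change of -1.86, SE 0.104, limma adjusted p 7.81e-06. MRE11, the nuclease, was at 8.56, 7.5 and 7.01 TPM in control and 3.35, 4.39 and 3.87 TPM in shFAM111B libraries, also with separate groups (log2 fold change -0.84, SE 0.126, limma adjusted p 0.00075), although it stood at 0.10 with the trend removed. RAD50 was at 7.3, 8.55 and 3.8 TPM in control and 4.39, 3.49 and 1.37 TPM in shFAM111B libraries. Both groups were spread widely and overlapped (log2 fold change -0.91, SE 0.371, limma adjusted p 0.0607), and without control 3 or shFAM111B 1 its value passed 2-fold (-1.21 and -1.15). RBBP8, which encodes CtIP and starts resection with this complex, overlapped at a log2 fold change of -0.04, and EXO1, which extends resection, fell by 0.55 (limma adjusted p 0.00969), with 0.0375 when the trend was removed. Among the helicases the changes were opposite. WRN was at 14.2, 12.4 and 16.2 TPM in control and 4.38, 7.54 and 4.35 TPM in shFAM111B libraries, a called fall of 1.28 (SE 0.204, limma adjusted p 0.00103) that was called under 2 of the 7 scalings and stood at -0.41 with the trend removed. BLM was at 11.2, 11.4 and 13.2 TPM in control and 14.6, 14.3 and 16.4 TPM in shFAM111B libraries, a rise of 0.32 (SE 0.0942, limma adjusted p 0.019), and it stayed positive under all 7 scalings. RAD52, an annealing factor (called under 2 of the 7 scalings) named here after its values were seen because it was the remaining called gene, was at 6.38, 3.2 and 6.52 TPM in control and 1.64, 1.9 and 1.65 TPM in shFAM111B libraries (log2 fold change -1.17, SE 0.237, limma adjusted p 0.00328), control 2 being the lowest control. RAD51C, the highest of the group by mean TPM, was at 41.3, 47.7 and 44.4 TPM in control and 50.7, 43.1 and 42.4 TPM in shFAM111B libraries, and RAD54L likewise did not pass (limma adjusted p 0.79 and 0.769).

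Among the Fanconi genes, both members of the D2-I pair fell in the deposited TPM, FANCD2 turning positive under 2 scalings, as did 3 of the other 4, FANCA likewise turning. In all, 5 of 6 fell (background 50.9%), 2 of them called (background 23.7%), 0 rose (background 21.1%), and FANCM did not pass. The median was -0.66, and against the median gene -0.30, from -0.31 to 0.01 over the scalings. FANCD2 was at 37.3, 39.2 and 36.5 TPM in control and 27.8, 26.2 and 28.2 TPM in shFAM111B libraries (log2 fold change -0.44, SE 0.0603, limma adjusted p 0.00045), but at 0.0895 with library medians subtracted and 0.28 with the trend removed. FANCI was at 55.1, 46.5 and 52.7 TPM in control and 30.4, 24 and 30.7 TPM in shFAM111B libraries, with the greater fall of the pair (log2 fold change -0.84, SE 0.113, limma adjusted p 0.000417) and a negative value under all 7 scalings. FANCA, of the ligase complex that marks this pair with ubiquitin and the highest of the group by mean TPM, was at 47, 50.3 and 64.2 TPM in control and 35.7, 38 and 39.6 TPM in shFAM111B libraries. Its fall of 0.49 (limma adjusted p 0.00765) became 0.046 with library medians subtracted and 0.18 with the trend removed. BRIP1, a helicase that binds BRCA1, was at 5.52, 5.08 and 5.76 TPM in control and 1.87, 2.32 and 2.12 TPM in shFAM111B libraries, and every shFAM111B library was under every control (log2 fold change -1.06, SE 0.116, limma adjusted p 0.00015), though it was called under 2 of the 7 scalings and was -0.26 with the trend removed. SLX4, a nuclease scaffold, was at 3.12, 3.65 and 3.06 TPM in control and 1.12, 1.19 and 1.05 TPM in shFAM111B libraries, just past 2-fold (log2 fold change -1.01, SE 0.124, limma adjusted p 0.000267) and no longer so without control 2 (-0.95) or without shFAM111B 3 (-0.99), and it was called under 2 of the 7 scalings, with -0.29 when the trend was removed. FANCM, the translocase that finds the crosslink, had the highest change of the group and was at 2.62, 2.42 and 3.58 TPM in control and 2.17, 5.12 and 4.39 TPM in shFAM111B libraries, where shFAM111B 1 lay below all controls and the others above them (log2 fold change 0.29, SE 0.263, limma adjusted p 0.345).

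In end joining the Ku subunits parted and the kinase fell. Of 5 genes, 3 fell (PRKDC, XRCC5 and LIG4, background 50.9%), 1 of them called (background 23.7%), 0 rose (background 21.1%), and XRCC4 and XRCC6 did not pass. The group's median was -0.74, and against the median gene it was -0.38, between -0.62 and -0.31 under the scalings. PRKDC, the DNA-dependent protein kinase, was at 82.3, 91.3 and 98 TPM in control and 17.7, 26.4 and 9.55 TPM in shFAM111B libraries. All shFAM111B libraries were far below the controls but differed among themselves, shFAM111B 3 being the lowest. The means were 90.6 ± 7.89 and 17.9 ± 8.44 TPM (SD, n = 3), for a log2 fold change of -2.38, SE 0.314, limma adjusted p 0.00039, and it ranged from -2.70 to -2.01 with 1 library left out. XRCC5, which encodes Ku80, was at 124, 119.9 and 117 TPM in control and 68.9, 71 and 74.5 TPM in shFAM111B libraries, with close replicates (log2 fold change -0.74, SE 0.0508, limma adjusted p 1.71e-05). XRCC6, which encodes its partner Ku70 and had the highest level of all 49 genes, was at 369.6, 375 and 379.8 TPM in control and 385, 383 and 410.5 TPM in shFAM111B libraries. Its shFAM111B libraries were all slightly above the controls, without passing (log2 fold change 0.07, SE 0.0434, limma adjusted p 0.206), and its sign was negative by quantile normalization (-0.24) and with protein-coding nuclear genes rescaled (-0.06). LIG4, the ligase of this route, was at 4.72, 4.17 and 3.62 TPM in control and 1.06, 1.16 and 3.04 TPM in shFAM111B libraries, where shFAM111B 3 stood near the controls (log2 fold change -0.98, SE 0.27, limma adjusted p 0.0141), and without that library its value was -1.29. XRCC4, which binds LIG4, was at 8.46, 7.89 and 6.99 TPM in control and 7.73, 8.42 and 5.91 TPM in shFAM111B libraries, with overlapping groups (limma adjusted p 0.626).

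In base excision and strand-break repair 5 of 7 genes fell (LIG3, PARP1, UNG, APEX1 and PARP2), where 50.9% of all tested genes did. Only 1 of the 7 was called (14.3%, background 23.7%), 0 rose (background 21.1%), and XRCC1 and OGG1 did not pass. All 5 stayed negative under the 7 scalings, but PARP2 was only at -0.014 and APEX1 at -0.030 with library medians subtracted. Both had a limma adjusted p under 0.05 in 4 of the 7 scalings. The median of the 7 genes was -0.56, or -0.20 against the median gene (-0.49 to -0.13 over the scalings). LIG3, the ligase that also serves mitochondrial DNA, had the lowest change of the group in the deposited TPM, though not with the trend removed (-0.54, against -0.68 for APEX1). It was at 25.6, 21.9 and 23.9 TPM in control and 6.82, 7.27 and 8.34 TPM in shFAM111B libraries, with means of 23.8 ± 1.85 and 7.48 ± 0.781 TPM (SD, n = 3) and a log2 fold change of -1.55, SE 0.1, limma adjusted p 1.35e-05. XRCC1, the scaffold that holds LIG3, was at 28.2, 28.3 and 29.4 TPM in control and 30.4, 27.5 and 28.1 TPM in shFAM111B libraries, overlapping in full (log2 fold change 0.00, limma adjusted p 0.996). PARP1, the main sensor of nicks, was at 159, 154 and 159 TPM in control and 89, 93.5 and 93.4 TPM in shFAM111B libraries (log2 fold change -0.77, SE 0.0441, limma adjusted p 8.64e-06). PARP2 was at 57.3, 49.5 and 52.4 TPM in control and 35.4, 37.9 and 34.5 TPM in shFAM111B libraries (log2 fold change -0.55, SE 0.0722, limma adjusted p 0.000388). APEX1, the endonuclease that cuts at abasic sites and the highest of the group by mean TPM, was at 231, 259 and 246 TPM in control and 163, 177 and 158 TPM in shFAM111B libraries (log2 fold change -0.56, SE 0.0635, limma adjusted p 0.000175). UNG, the uracil glycosylase, fell by 0.69 (SE 0.0483, limma adjusted p 1.91e-05). OGG1, the glycosylase for oxidised guanine, had the highest change of the group and was at 16.2, 19.4 and 17.9 TPM in control and 22.9, 19.3 and 21.1 TPM in shFAM111B libraries, with groups that overlapped (log2 fold change 0.23, SE 0.0951, limma adjusted p 0.0649).

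Nucleotide excision repair held genes that moved both ways. Of 6 genes, 3 fell (XPC, XPA and ERCC4, background 50.9%), 1 rose (ERCC5, background 21.1%) and ERCC1 and ERCC2 did not pass. The median was -0.53, which was -0.17 against the median gene and -0.23 to 0.10 over the scalings. XPC, which finds the lesion, was at 26.7, 25.3 and 24.9 TPM in control and 9.59, 9.38 and 8.36 TPM in shFAM111B libraries (log2 fold change -1.40, SE 0.0794, limma adjusted p 8.35e-06), called under 3 of the 7 scalings and at -0.74 with the trend removed. XPA, which checks it, fell by 0.99 (SE 0.0633, limma adjusted p 1.32e-05), just under 2-fold, and was called without control 3 or without shFAM111B 2 (-1.01). ERCC5, the nuclease that cuts on the 3′ side, was at 8.04, 7.03 and 9.5 TPM in control and 12, 13.4 and 12.6 TPM in shFAM111B libraries, a rise of 0.58 (SE 0.117, limma adjusted p 0.00327) that stayed positive under all 7 scalings. The read-through gene BIVM-ERCC5 covers the same exons, and it was at 4.83, 4.7 and 3.24 TPM in control and 2.47, 2.05 and 2.21 TPM in shFAM111B libraries, the opposite direction (log2 fold change -0.68, SE 0.158, limma adjusted p 0.00631). BIVM itself fell too (log2 fold change -1.32, SE 0.254, limma adjusted p 0.00264). How reads were divided between these genes was not tested. ERCC4, which cuts on the 5′ side, was at 1.89, 1.26 and 1.65 TPM in control and 0.52, 0.66 and 0.3 TPM in shFAM111B libraries (log2 fold change -0.80, SE 0.169, limma adjusted p 0.00407). It passed the filter of 1 TPM through the controls alone, so its p-value and its ratio to ERCC1 rest on a gene kept by its higher group. ERCC1, its partner and the highest of the group by mean TPM, was at 38.5, 41.2 and 41.1 TPM in control and 34.8, 40.3 and 51.8 TPM in shFAM111B libraries, with shFAM111B 3 the highest library (limma adjusted p 0.751). ERCC1 overlaps POLR1G on the other strand, and POLR1G was at 12.2, 11.1 and 11.5 TPM in control and 2.9, 4.14 and 4.34 TPM in shFAM111B libraries (log2 fold change -1.41, SE 0.14, limma adjusted p 9.17e-05).

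All 3 mismatch repair genes fell (background 50.9%), and their summed level was 47.7 ± 2.24 TPM in control and 18.7 ± 0.907 TPM in shFAM111B libraries (SD, n = 3). MSH6, the most abundant of them and the part of MutS alpha that reads base mismatches, was at 39.4, 42.1 and 37.1 TPM in control and 16.6, 14.1 and 14.4 TPM in shFAM111B libraries, a called fall (log2 fold change -1.34, SE 0.0854, limma adjusted p 1.29e-05) that was called under 2 of the 7 scalings and was -0.45 with the trend removed. MSH3, which recognises larger loops, was at 4.7, 3.92 and 4.31 TPM in control and 1.91, 1.94 and 1.84 TPM in shFAM111B libraries (log2 fold change -0.87, SE 0.115, limma adjusted p 0.000386). PMS2, of the MutL alpha endonuclease, was at 4.01, 3.78 and 3.97 TPM in control and 1.27, 2.12 and 1.96 TPM in shFAM111B libraries (log2 fold change -0.84, SE 0.153, limma adjusted p 0.00203), and its near-identical copies make the split of its reads uncertain. PMS2CL was at 4.47, 4.61 and 5.98 TPM in control and 3.86, 3.65 and 4.02 TPM in shFAM111B libraries and did not pass (limma adjusted p 0.0687), and the 12 listed PMS2 pseudogenes summed to 34.3 to 39.8 TPM in control and 34.4 to 37.7 TPM in shFAM111B libraries. No listed pseudogene of CHEK2, FANCD2 or XRCC6 reached 1 TPM. The median of the mismatch group against the median gene was -0.51 and lay between -0.56 and -0.44 over the scalings. RAD18, the ubiquitin ligase that opens post-replication bypass, was at 13.1, 13.2 and 13.5 TPM in control and 4.29, 4.94 and 5.3 TPM in shFAM111B libraries, a called fall with little spread among the controls (log2 fold change -1.29, SE 0.097, limma adjusted p 2.53e-05), called under 2 of the 7 scalings and at -0.37 with the trend removed.

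**Figure D2:**
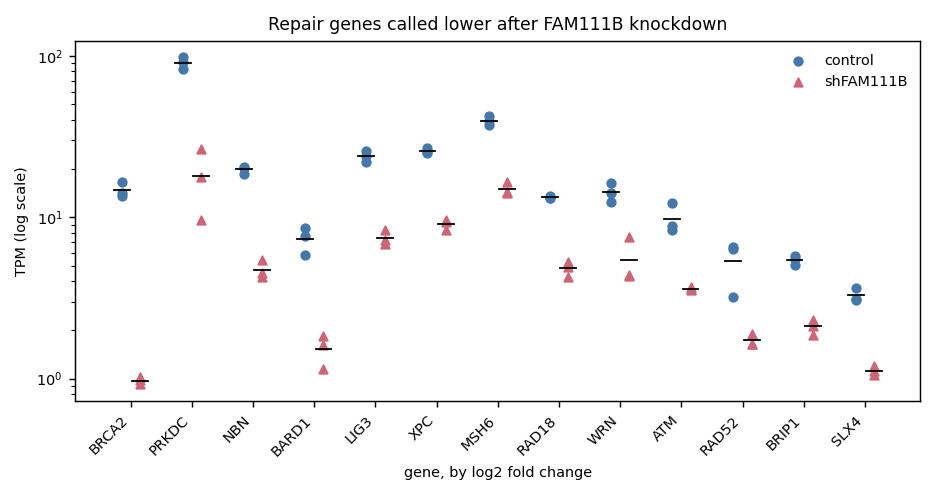
TPM (log axis) of the 13 repair genes called lower, in order of log2 fold change, with 1 point for each control (circle) and shFAM111B library (triangle) and bars at the group means. No triangle reaches a circle of the same gene, BRCA2 triangles sit between 0.92 and 1.02 TPM, and the PRKDC triangles are the most spread out.

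The products of many of these genes work as pairs, and the ratio of the partners' TPM within a library does not depend on the scale between libraries. A ratio does not remove the trend with transcript length given below where the partners differ in length. Such pairs were BRCA2 (11986 nt) and PALB2 (4003 nt), PRKDC (13509 nt) and XRCC5 (3761 nt), and CHEK2 (2560 nt) and ATM (13147 nt). The part of length in the ratios was not tested. Ratios are given of TPM + 1, in which the added 1 leaves some dependence on that scale for low genes. Under median-of-ratios, upper-quartile and protein-coding rescaling, all 15 mean differences kept their sign, ERCC4 to ERCC1 moving most, from -0.85 to -1.08. Each of these scalings multiplies a whole library by 1 factor, so it can reach a ratio only through the added 1. Quantile normalization and removal of the length and expression trend can change a ratio itself, and they were not applied to the ratios. Of 15 pairs, the log2 ratio was lower in every shFAM111B library than in every control for 9, higher for 4 and overlapping for 2. The share of separated ratios among pairs of other genes was not computed, so these counts do not mark out repair partners. Of single tested genes, 75.2% had groups that did not overlap. The smallest p that the exact two-sided permutation test of 3 against 3 libraries can give is 0.1, and all 13 separated pairs were at it (0.115 after Benjamini-Hochberg adjustment over the 15 pairs), so none could pass 0.05. Without the added 1, an alternative chosen after the data were seen, 13 pairs were again separated. The mean differences then were -1.80 for ERCC4 to ERCC1, 1.20 for BRCA1 to BARD1 and 0.22 for MSH3 to MSH6, in place of -0.85, 0.74 and 0.47, and -3.99 for BRCA2 to PALB2 in place of -3.06. BRCA2 to PALB2 changed most, with log2 ratios of 0.87, 0.77 and 0.62 in control and -2.36, -2.05 and -2.50 in shFAM111B libraries. In control cells BRCA2 exceeded PALB2, and in shFAM111B cells it was several-fold below it. PRKDC to XRCC5 had log2 ratios of -0.58, -0.39 and -0.25 in control and -1.90, -1.39 and -2.84 in shFAM111B libraries. LIG3 to XRCC1 had log2 ratios of -0.14, -0.36 and -0.28 in control and -2.01, -1.79 and -1.64 in shFAM111B libraries, a shift of -1.55 from near parity. NBN to MRE11 had log2 ratios of 1.15, 1.34 and 1.29 in control and 0.34, 0.25 and 0.12 in shFAM111B libraries, so the NBN excess over MRE11 shrank. XRCC5 to XRCC6, whose products form the Ku heterodimer, stood at -1.57, -1.64 and -1.69 in control and -2.46, -2.42 and -2.45 in shFAM111B libraries. ERCC4 to ERCC1 (a mean difference of -0.85), CHEK1 to ATR (-0.42), ATR to ATRIP (-0.37) and PARP1 to PARP2 (-0.22) were lower as well.

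Higher ratios were seen where the second partner fell the further of the pair. BRCA1 to BARD1 had log2 ratios of 1.11, 1.39 and 0.74 in control and 1.73, 1.91 and 1.82 in shFAM111B libraries. CHEK2 to ATM had log2 ratios of 1.17, 1.81 and 1.84 in control and 3.05, 2.83 and 2.92 in shFAM111B libraries, control 1, the control with the highest ATM, being the lowest. FANCD2 to FANCI (-0.44 to -0.04 as group means) and MSH3 to MSH6 (-2.93 to -2.47) moved less. LIG4 to XRCC4 overlapped through shFAM111B 3 alone, with log2 ratios of -0.73, -0.78 and -0.79 in control and -2.08, -2.12 and -0.77 in shFAM111B libraries, and RAD50 to MRE11 overlapped in both groups (-0.26 and -0.33 as group means). A ratio shows unequal change of the partners and does not show that either stayed the same.

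**Figure D3:**
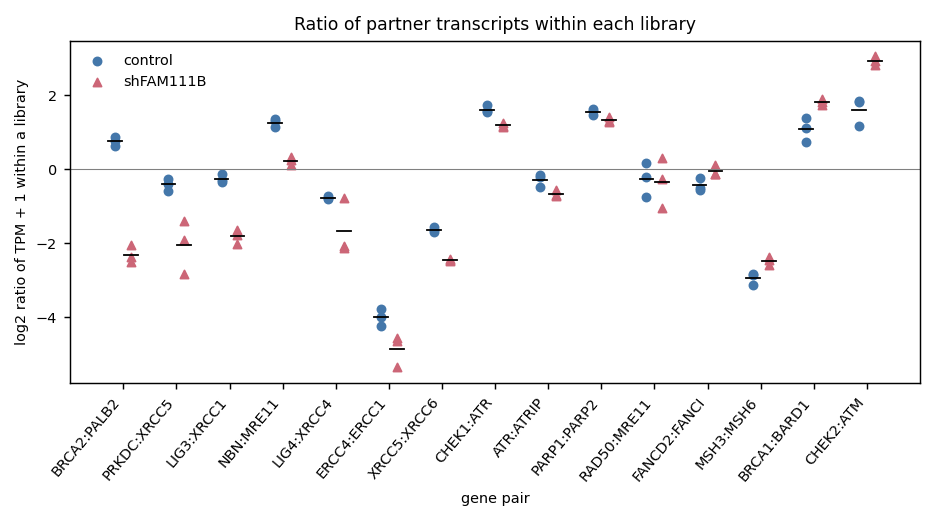
Log2 ratio of TPM + 1 of 2 partner genes within each library (vertical axis) for 15 pairs, with control libraries as circles, shFAM111B libraries as triangles and bars at the group means. The triangles lie wholly below the circles in 9 pairs, wholly above them in 4, and overlap them for LIG4:XRCC4 and RAD50:MRE11, with the greatest distance for BRCA2:PALB2 (0.75 to -2.30).

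Which repair genes counted as changed depended on the scale put on the libraries. Counts are given with the share of all genes tested under the same scaling in brackets. The number called lower was 13 as deposited (23.7%), 5 with median-of-ratios scaling (12.5%), 6 with upper-quartile scaling (13.3%) and 5 by quantile normalization (12.8%). It was 5 with library medians subtracted (9.07%), 19 with protein-coding nuclear genes rescaled (31.2%) and 4 with the length and expression trend removed (9.16%). BRCA2, NBN and PRKDC were called lower under all 7 scalings, with log2 fold changes from -3.22 to -2.02, -2.02 to -1.02 and -2.52 to -1.61. BARD1 and LIG3 were called under 6 of the 7 and had -0.94 and -0.54 with the trend removed. The other 8 called genes were called under 2 or 3 of the 7. In sign alone, 25 genes were negative under all 7 scalings, 4 were positive (BLM, FANCM, OGG1 and ERCC5) and 20 took both signs. The 20 included BRCA1, MRE11, EXO1, FANCA, FANCD2, ATR and MDC1, all of which fell in the deposited TPM. ERCC5 was called higher by quantile normalization (11.8% of all tested genes) and with library medians subtracted (18.0%). With the trend removed, BLM, FANCM, OGG1 and ERCC5 were called higher (9.61%).

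**Figure D4:**
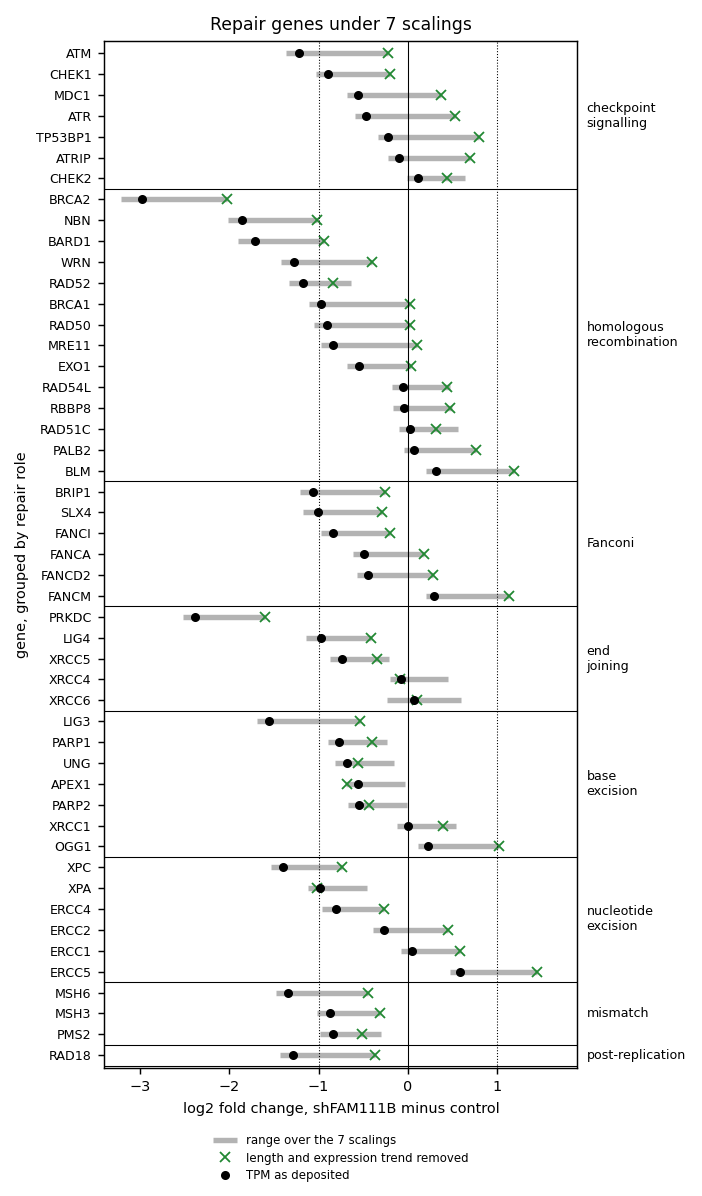
Log2 fold change, shFAM111B minus control (horizontal axis), of the 49 repair genes by role: deposited TPM (black dots), length and expression trend removed (crosses) and the range over all 7 scalings (grey bars), with dotted lines at a 2-fold change. Only BRCA2, NBN and PRKDC have whole bars left of the lower line, and 20 bars cross 0.

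Repair genes have long transcripts, and in these libraries longer transcripts were lower in shFAM111B cells across the genome. The median longest annotated transcript was 4743 nt for the 49 genes and 3210 nt for all tested genes. Across the 14263 tested genes with a length, Spearman's rho between length and log2 fold change was -0.459, and across the 49 genes it was -0.387. These are correlations across genes of the same 6 libraries, and genes are not independent replicates. Over 6000 nt, 7 of 15 repair genes were called lower against 45.2% of all genes of that length, with medians of -0.98 and -0.93. From 4000 to 6000 nt it was 4 of 16 against 34.7% (medians -0.66 and -0.74), and from 2000 to 4000 nt 2 of 14 against 18.7% (-0.30 and -0.31). The 4 genes up to 2000 nt (XPA, APEX1, PARP2 and XRCC4) had a median of -0.56 where all genes of that length had 0.27, with 0 called against 8.36%. In every longer class the repair genes were thus close to other genes of their length. BRCA2 (11986 nt) and PRKDC (13509 nt) lay far below the median for their length and NBN (4907 nt) did too, whereas BLM (5258 nt) and ERCC5 (5143 nt) rose among long transcripts. The part of length alone in the results was not tested, as the fit removed a trend on length and mean expression together.

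Replication-coupled repair genes were set beside the rest. Among 13 of them (BRCA1, BRCA2, BARD1, BRIP1 and others expressed around S phase) 11 fell (background 50.9%), 1 rose (background 21.1%) and 1 did not pass. Of the 13, 4 were called lower (30.8%), and the median was -0.84. The other 36 had 9 called lower (25.0%) and a median of -0.65, both shares being near the 23.7% of all tested genes. Of 24 proliferation markers, in the deposited TPM, 17 fell (background 50.9%), 3 rose (background 21.1%) and 4 did not pass, with a median of -0.44. Called lower were 5 (20.8%, background 23.7%), namely CCNE2, MKI67, RRM2, CCNA2 and MCM4. Called higher were 0 (background 6.82%), the highest change of the list being 0.35. MKI67, the marker of cycling cells, was at 34.7, 36.7 and 32.1 TPM in control and 7.45, 8.36 and 6.96 TPM in shFAM111B libraries (log2 fold change -2.05, SE 0.0911, limma adjusted p 4.06e-06). The summed level of the 24 markers was 2485 ± 34.0 TPM in control and 1943 ± 19.3 TPM in shFAM111B libraries (SD, n = 3). What part the share of dividing cells had in the repair genes was not tested.

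A wider list of 85 further repair genes, all tested, was called lower in 23 cases (27.1%, background 23.7%) and higher in 2 (background 6.82%). In the deposited TPM 45 fell (background 50.9%), 14 rose (background 21.1%) and 26 did not pass, and the median was -0.41, close to the -0.36 of all genes. The lowest was SMC5, of the SMC5-SMC6 complex that helps sister chromatid recombination, which was at 22.6, 20.6 and 20.6 TPM in control and 3.59, 3.44 and 3.45 TPM in shFAM111B libraries (log2 fold change -2.31, SE 0.0833, limma adjusted p 2.65e-06). The cohesin subunit RAD21 was next, at 82.9, 80 and 75.8 TPM in control and 18.4, 22 and 16.9 TPM in shFAM111B libraries (log2 fold change -2.01, SE 0.0984, limma adjusted p 5.11e-06). Those called higher were GTF2H5, a small TFIIH subunit, at 13.7, 14.2 and 12.4 TPM in control and 32.9, 32.4 and 39.1 TPM in shFAM111B libraries (log2 fold change 1.31, SE 0.0954, limma adjusted p 2.24e-05), and RECQL4, a helicase related to BLM and WRN, at 30.6, 27.5 and 35.1 TPM in control and 66.7, 58.5 and 81.8 TPM in shFAM111B libraries (log2 fold change 1.12, SE 0.137, limma adjusted p 0.000268). RAD51B had the highest value of the list (1.51) through shFAM111B 3 alone, at 1.25, 2.49 and 0.78 TPM in control and 2.13, 2.7 and 27.1 TPM in shFAM111B libraries, and did not pass (limma adjusted p 0.133).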

How the data were processed

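RNA from 3 control and 3 shFAM111B Huh7 libraries was sequenced by the authors. The labels give a stranded poly(A) kit and the methods a TruSeq kit. The submitters' processing notes name hg38, RSEM and DESeq2 without versions. The aligner is not given in the sources used here. The authors deposited TPM per library and gene, the unit used here, so no counts entered and depth and counting error are unknown. The same deposited table holds the authors' group mean TPM, fold change (a ratio), log2 fold change, p-value and adjusted p-value, none of which was used. No Hep3B values were used.

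The 14394 of 60666 genes that reached 1 TPM in 3 or more libraries were taken as log2(TPM + 1) and compared with limma 3.58.1 (lmFit, eBayes with trend, R 4.3.3), without covariates and with Benjamini-Hochberg adjustment over all of them. Calls needed a 2-fold change and P under 0.05. Partner ratios were compared by an exact permutation test. Lengths are of the longest GENCODE release 29 transcript. The trend of the fold change on length and mean expression together was fitted over these same genes by loess (span 0.75) and removed. On simulated data, 194 of 200 genes changed by 1.5 (log2) among 14394 were called, with 52 unchanged genes. No pair of libraries shared over 0.889% of values. The replicate numbers were not used to pair the libraries in the main fit.

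The members, lists and pairs were chosen with earlier results of these data known. Named per library were, in each role, the genes with the highest and lowest change and the highest mean TPM, the 12 called genes with the smallest P, and members of a pair. Named after their values were seen were RAD52, the neighbouring genes, and those of the wider repair and proliferation lists. Alternatives were the pseudocount, the filter, 6 scalings, limma without trend or with robust variances, a replicate block, adjusted calls and leaving out each library.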

Additional observations from a re-analysis of the deposited data

How the results depend on the processing

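The fall of FAM111B kept its direction and call under every alternative run that retained the gene (-2.93 with a pseudocount of 0.1 to -1.66 with library medians subtracted), and ranged from -2.25 to -2.15 with 1 library left out. Without 1 library the number of repair genes called lower was 12 to 17, the number called higher 0 each time, the distance of their median from the median gene -0.40 to -0.32 and the separated partner ratios 13 to 14. With 17 called, the library left out was control 3. The replicate block gave the same 13 lower and 0 higher calls and changed no call. Same-numbered libraries deviated together at correlations of 0.0540, 0.0349 and 0.0908. Each was the highest for its control library, and differently numbered libraries lay between -0.0763 and 0.0442. Values this small, from 3 libraries per group, cannot decide whether the numbers pair the libraries. With the block the SE of RAD50 was 0.147 in place of 0.371, at the same log2 fold change of -0.91. The adjusted p of RAD50 with the block is not given here. A pseudocount of 0.1, which enlarges the fold changes of low genes, gave 19 called lower. The shares of all tested genes called with that pseudocount or with a library left out are not given here. Those counts therefore say nothing particular to repair genes. Without a pseudocount, tried after the data were seen, 13 partner ratios were separated. Requiring 1 TPM in every library removed BRCA2, ERCC4 and FAM111B, which then have no value.

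The number called lower became 5 with median-of-ratios scaling (12.5% of all tested genes), 6 with upper-quartile scaling (13.3%) and 5 by quantile normalization (12.8%). It became 5 with library medians subtracted (9.07%), 4 with the length and expression trend removed (9.16%) and 32 by adjusted p with no limit on the fold (50.9%). The number called higher became 1 by quantile normalization (11.8% of all tested genes), 1 with library medians subtracted (18.0%), 4 with the trend removed (9.61%) and 2 by adjusted p alone (21.1%). The median repair gene minus the median gene became -0.70 with no filter, -0.32 with 1 TPM in every library, -0.33 with a pseudocount of 0.1, -0.32 with median-of-ratios and -0.32 with upper-quartile scaling, -0.43 by quantile normalization, -0.31 with protein-coding nuclear genes rescaled and -0.18 with the trend removed. The filter changes which genes form the median, and the cause of the other shifts was not tested.

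Signs turned as follows. With the trend removed, RAD50 was at 0.0207, BRCA1 0.0263, EXO1 0.0375, MRE11 0.10, FANCA 0.18, FANCD2 0.28, MDC1 0.37, RAD54L 0.44, ERCC2 0.45, RBBP8 0.48, ATR 0.53, ATRIP 0.70 and TP53BP1 0.80. With library medians subtracted, FANCA was at 0.046, ATR 0.0618, FANCD2 0.0895, ERCC2 0.27, TP53BP1 0.31, ATRIP 0.43, XRCC4 0.45, RAD54L 0.47 and RBBP8 0.49. By quantile normalization, XRCC6 was at -0.24, ATR 0.0509, ERCC2 0.24, TP53BP1 0.29, RBBP8 0.39, RAD54L 0.41, ATRIP 0.42 and XRCC4 0.44. With median-of-ratios scaling, ERCC2 was at 0.16, TP53BP1 0.17, ATRIP 0.31, XRCC4 0.32, RAD54L 0.38 and RBBP8 0.40. With upper-quartile scaling, ERCC2 was at 0.12, TP53BP1 0.14, ATRIP 0.28, XRCC4 0.29, RAD54L 0.34 and RBBP8 0.36. With protein-coding nuclear genes rescaled, CHEK2 was at -0.0118, PALB2 -0.0408, XRCC6 -0.06, ERCC1 -0.0733, RAD51C -0.10 and XRCC1 -0.12. With 1 library left out, XRCC1 ran from -0.0413 to 0.0286, RAD51C from -0.052 to 0.0789, PALB2 from -0.0399 to 0.20, RAD54L from -0.18 to 0.12, ATRIP from -0.18 to 0.0032, XRCC4 from -0.17 to 0.0501, ERCC1 from -0.10 to 0.18 and the RAD50 to MRE11 ratio difference from -0.39 to 0.28. TPM hold no depth, so the precision of the lowest genes, such as BRCA2 and ERCC4 in shFAM111B cells, cannot be given from counts.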
